A study of Mus musculus with 8 samples.

Results

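The DNA damage response genes described here are 33 genes of damage signalling, DNA repair and repair-linked ubiquitin transfer, all of which were found among the curated RefSeq genes of the mouse genome GRCm38. Their peaks are the BMAL1 ChIP-seq peaks whose centre had its nearest curated transcription start site in 1 of these genes, which were 385 of 211109 peaks in 4 lists. BMAL1 was precipitated from HC11, an established epithelial line from the mouse mammary gland, able to make milk proteins when given lactogenic hormones, and each of the 4 ChIP libraries was set against the input DNA of its own culture. The differentiated cultures (DIFF1 and DIFF2) were first kept for 48 h without EGF in medium with 10% serum and 5 µg/mL insulin. They then had 96 h in medium with 10% serum, 5 µg/mL prolactin, 0.1 µM dexamethasone and 5 µg/mL insulin. The undifferentiated cultures (UNDIFF1 and UNDIFF2) were harvested at the end of those 48 h, so hormones and time in culture cannot be told apart between the states. Chromatin of all cultures was fixed with 1% formaldehyde. With 1 cell line and 2 cultures per state, p-values measure the spread between these cultures only.

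Cells answer broken or modified DNA with sensor kinases that halt the cell cycle and with separate repair pathways for each kind of lesion. Double-strand breaks are mended by homologous recombination, which copies an intact sister, or by end joining, while bulky adducts, damaged bases, crosslinks and mismatches each have excision or crosslink repair systems of their own. BMAL1 is the core clock transcription factor that pairs with CLOCK and binds the E-box CACGTG, and the circadian clock is known to be linked to checkpoint and excision repair genes in other tissues. Expression was not measured in these samples, so a peak near a gene says nothing of the level of its RNA.

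One list stood apart from the others. DIFF2 held 185417 peaks, against 13683 in DIFF1, 6534 in UNDIFF1 and 5475 in UNDIFF2, although the tag total behind it, as read from its peaks, was the lowest (35.3 M tags, against 57.5 to 80.3 M tags in the other lists). These totals rest on the listed ChIP tags, which may be scaled and so may not give the full ChIP depth. At the DIFF1 peak of Mapk14, for example, 16.9 ChIP tags were listed beside a peak score of 26.0. The methods of the study state that a single DIFF pair of ChIP and input was sequenced far more deeply than the rest and that only a subset of its reads was used, without saying which culture it was. For the number of peaks the study gives a lower bound across both DIFF samples, which the DIFF1 count alone exceeds. It gives no separate count for DIFF2. Of the member peaks in DIFF2, 285 of 318 had their centre in a soft-masked repeat, against 6 of 38 in DIFF1, 2 of 17 in UNDIFF1 and 1 of 12 in UNDIFF2. The counts that set lists or states against each other are therefore given with and without DIFF2. The part of depth and repeats in them was not tested.

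Sequences are shown first for the sites on which the comparison between cultures turns, namely the bases that a member's peak in 1 list shares with its peak in another list. There were 6 such sites at 5 members. They are given on the plus strand of GRCm38, in lower case, and capitals would mark CACGTG or the related CACGTT on either strand. None of the 6 shared stretches holds either motif.
Bard1, DIFF1 and DIFF2, chr1:70917249-70917457: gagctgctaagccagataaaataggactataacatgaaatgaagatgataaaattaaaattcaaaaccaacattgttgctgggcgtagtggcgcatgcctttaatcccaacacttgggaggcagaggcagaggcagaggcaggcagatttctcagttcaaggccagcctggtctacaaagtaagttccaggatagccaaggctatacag
Bard1, DIFF1 and DIFF2, chr1:70966516-70966712: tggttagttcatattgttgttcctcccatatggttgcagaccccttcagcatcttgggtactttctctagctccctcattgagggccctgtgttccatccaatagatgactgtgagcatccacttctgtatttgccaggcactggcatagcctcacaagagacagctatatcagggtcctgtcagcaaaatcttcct
Brca2, DIFF2 and UNDIFF1, chr5:150546819-150546946: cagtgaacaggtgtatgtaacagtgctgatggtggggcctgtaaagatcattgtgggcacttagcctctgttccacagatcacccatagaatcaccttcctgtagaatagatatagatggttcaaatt
Cdkn2aip, DIFF1 and DIFF2, chr8:47719715-47719845: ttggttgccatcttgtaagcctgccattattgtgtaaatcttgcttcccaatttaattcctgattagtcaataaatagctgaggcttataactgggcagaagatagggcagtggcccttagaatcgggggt
Mapk14, DIFF1 and DIFF2, chr17:28697439-28697652: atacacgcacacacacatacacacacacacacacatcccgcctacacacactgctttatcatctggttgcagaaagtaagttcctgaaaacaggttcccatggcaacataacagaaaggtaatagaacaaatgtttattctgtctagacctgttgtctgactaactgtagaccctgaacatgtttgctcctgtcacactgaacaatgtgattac
Xrcc5, DIFF2 and UNDIFF2, chr1:72304898-72305048: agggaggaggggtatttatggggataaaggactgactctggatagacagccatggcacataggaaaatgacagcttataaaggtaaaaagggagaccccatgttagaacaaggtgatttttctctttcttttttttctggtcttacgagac

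The Brca2 site lies in an intron of Brca2 and the Mapk14 site in an intron of Mapk14, whereas the other 4 lie between genes. Soft-masked repeats made up all of the Bard1 stretch that starts at 70966516 (100.0%), 74.2% of the other Bard1 stretch, 37.1% at Xrcc5, 19.2% at Mapk14, 8.4% at Cdkn2aip and 0.0% at Brca2.

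The second set of sequences holds the member peaks closest to a start site. Only 3 member peaks had their centre within 1 kb of one, at Mapk14 (272 bp downstream, DIFF2), Nbn (740 bp upstream, DIFF2) and Cdkn2aip (850 bp upstream, UNDIFF1). The Mapk14 peak touches an exon and its sequence is not printed. Its central 300 bases had a GC content of 77.3% and 42 CpG dinucleotides, and 0.0% were soft-masked. The whole UNDIFF1 peak at Cdkn2aip and the central 300 bases of the DIFF2 peak at Nbn follow in the same notation, and neither holds CACGTG or CACGTT.
Cdkn2aip, UNDIFF1, chr8:47714684-47714878: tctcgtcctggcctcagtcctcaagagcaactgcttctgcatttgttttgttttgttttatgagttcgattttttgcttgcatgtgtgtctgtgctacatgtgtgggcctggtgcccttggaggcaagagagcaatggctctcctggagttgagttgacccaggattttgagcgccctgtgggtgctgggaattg
Nbn, DIFF2, chr4:15957077-15957376: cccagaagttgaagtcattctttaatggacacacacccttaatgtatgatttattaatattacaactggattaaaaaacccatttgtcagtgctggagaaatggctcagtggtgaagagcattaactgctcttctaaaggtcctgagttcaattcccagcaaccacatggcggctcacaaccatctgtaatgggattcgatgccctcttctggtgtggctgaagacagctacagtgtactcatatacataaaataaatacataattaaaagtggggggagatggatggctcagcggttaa

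These upstream stretches were poor in CpG, with 3 each, and 56.9% of the Cdkn2aip stretch and 73.7% of the Nbn stretch were soft-masked.

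The third set holds E-boxes found in member peaks. CACGTG, which reads the same on both strands, occurred in 13 member peaks (14 E-boxes), 1 in DIFF1, 11 in DIFF2, 1 in UNDIFF1 and 0 in UNDIFF2. Those of 12 peaks are shown in capitals with 20 bases on either side, to show which stand in simple repeats.
Bard1, DIFF2, chr1:71032179-71032224: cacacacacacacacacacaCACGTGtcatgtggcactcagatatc
Ercc1, DIFF2, chr7:19335384-19335429: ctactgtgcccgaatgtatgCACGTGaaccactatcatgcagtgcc
Ercc4, DIFF2, chr16:13045112-13045157: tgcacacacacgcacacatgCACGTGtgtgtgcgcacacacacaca
Fancl, DIFF2, chr11:26348601-26348646: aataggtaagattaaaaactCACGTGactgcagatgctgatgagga
Lig4, DIFF2, chr8:9899344-9899389: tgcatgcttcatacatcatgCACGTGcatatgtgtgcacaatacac
Nbn, DIFF2, chr4:15972955-15973000: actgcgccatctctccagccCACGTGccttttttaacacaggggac
Parp1, DIFF2, chr1:180544203-180544248: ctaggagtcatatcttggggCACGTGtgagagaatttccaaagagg
Rad23b, DIFF1, chr4:55300344-55300389: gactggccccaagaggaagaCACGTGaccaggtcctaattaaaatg
Rad50, DIFF2, chr11:53685324-53685369: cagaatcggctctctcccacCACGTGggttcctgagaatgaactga
Trp53bp1, DIFF2, chr2:121260698-121260743: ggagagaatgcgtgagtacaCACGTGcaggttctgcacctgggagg
Ube2w, UNDIFF1, chr1:16633610-16633655: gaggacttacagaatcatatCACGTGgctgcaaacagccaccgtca
Xrcc5, DIFF2, chr1:72328448-72328493: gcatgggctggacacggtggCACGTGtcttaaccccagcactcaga

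The E-boxes of Bard1 and Ercc4 stand in runs of alternating bases, and in 6 of the 13 peaks every E-box was soft-masked. The Rad23b E-box of DIFF1, 49.6 kb upstream of the gene, and the Ube2w E-box of UNDIFF1, 14.4 kb upstream, lie outside repeats. The share of peaks with CACGTG was 2.63% of member peaks and 2.01% of all other peaks in DIFF1, 3.46% and 2.65% in DIFF2, 5.88% and 2.12% in UNDIFF1, and 0.0% and 1.46% in UNDIFF2. Of the 385 member peaks 11 held CACGTT on either strand. The share with it was 0.0% of member peaks and 2.35% of all other peaks in DIFF1, 3.14% and 1.91% in DIFF2, 0.0% and 1.98% in UNDIFF1, and 8.33% (1 peak of 12) and 2.45% in UNDIFF2.

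E-boxes near the start sites themselves did not coincide with peaks. In RefSeq promoter windows of GRCm38, from 250 bases before to 50 after a start site, 27 of the 33 members were matched with 32 windows, and CACGTG was present in 3 windows (9.38%), those of Parp1, Trp53 and Xrcc5. Over all 32851 promoter windows it was present in 7.15%. The nearest peak in any list lay 6.12 kb from the start site of Parp1, 3.67 kb from that of Trp53 and 2.36 kb from that of Xrcc5. A match is a string of letters and not evidence of binding.

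More members were nearest to a peak in the DIFF lists than in the UNDIFF lists, with DIFF2 reaching nearly all of them. A peak had its nearest start site in 17 of 33 members in DIFF1, where 24.0% of 21000 protein coding genes had one, and in 31 members in DIFF2, where 81.6% of protein coding genes had one. In UNDIFF1 this held for 11 members, beside 12.6% of protein coding genes, and in UNDIFF2 for 9 members, beside 8.7%. The mean was 24.0 ± 9.90 members in DIFF and 10.0 ± 1.41 members in UNDIFF (SD, n = 2 each; difference 14.0, exact permutation test, two-sided, p = 0.333). That p is the smallest that 2 cultures against 2 can give, so the test cannot reach 0.05. Without DIFF2, the difference was 7.0 members, and with each list held to its 5475 highest-scoring peaks it turned round to -1.5 members.

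Relative to the size of the lists, the values of the states overlapped. Member peaks made up 2.78 per 1000 peaks in DIFF1 (95% exact binomial interval 1.97 to 3.81) and 1.72 per 1000 in DIFF2 (1.53 to 1.91), against 2.60 in UNDIFF1 (1.52 to 4.16) and 2.19 in UNDIFF2 (1.13 to 3.83). The intervals cover counting error only. The means were 2.25 ± 0.751 in DIFF and 2.40 ± 0.290 in UNDIFF (SD, n = 2 each; difference -0.15, exact permutation test, two-sided, p = 1.0). Without DIFF2 the difference was 0.38 per 1000, with DIFF1 above both UNDIFF lists, and the sign of this difference also turned with 2 of 3 other gene assignments, with a higher minimum fold and without UNDIFF1.

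**Figure D1:**
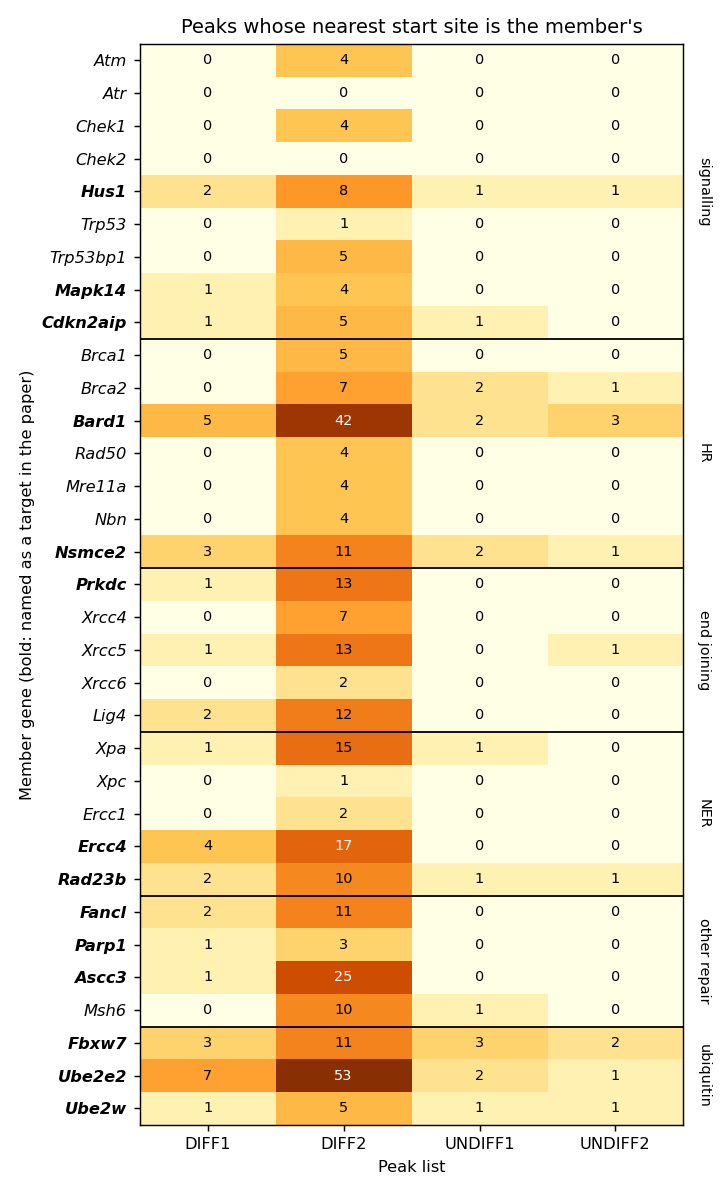
Number of peaks whose nearest curated start site belongs to each of the 33 members (rows, by role) in each peak list (columns); darker cells hold more peaks, and bold names are the 14 targets named in the paper. DIFF2 has the highest count in every row with a peak, up to 53 at Ube2e2, and only the rows of Atr and Chek2 are at 0 in all 4 lists.

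A total of 7 members were nearest to a peak in all 4 lists, namely Hus1, Bard1, Nsmce2, Rad23b, Fbxw7, Ube2e2 and Ube2w. That is 21.2% of the members, beside 3.97% of protein coding genes, and without DIFF2 the same 7 were nearest to a peak in the other 3 lists, again beside 3.97%. The count fell to 3 when all RefSeq transcripts supplied the start sites or when peaks in soft-masked repeats were left out, and to 2 with peaks at least 4-fold over input or with 5475 peaks per list. Another 7 were nearest to a peak in both DIFF lists and in neither UNDIFF list, namely Mapk14, Prkdc, Lig4, Ercc4, Fancl, Parp1 and Ascc3, which is 21.2% beside 13.1% of protein coding genes. Without DIFF2 these 7 were the members found in DIFF1 and in neither UNDIFF list, beside 13.9%. In DIFF2 alone 12 members were found, which is 36.4% beside 52.3%, and 2 members in no list, which is 6.06% beside 17.2%.

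These counts cannot be read as independent of the choice of members. The text of the paper names 14 of the 33 as targets, chosen on these same libraries, and those 14 include all 7 members of all 4 lists and 6 of the 7 found in both DIFF lists and neither UNDIFF list. All 14 were nearest to a DIFF1 peak, against 3 of the 19 others, which is below the 24.0% of protein coding genes. Among 125 further genes of the same pathways, 24 (19.2%) were nearest to a peak in DIFF1, 104 (83.2%) in DIFF2, 15 (12.0%) in UNDIFF1 and 9 (7.2%) in UNDIFF2. Only 3 of these 125 (2.4%) were found in all 4 lists, Etaa1, Poll and Neil3, and 15 (12.0%) in both DIFF lists and neither UNDIFF list.

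The members also differed in how much sequence was nearest to them. The median stretch nearest to a member's start sites was 65.9 kb, against 42.5 kb over protein coding genes. It was 190 kb for the 14 named members and 38.2 kb for the 19 others, and it was 235 kb for the 7 members found in all 4 lists. Over the 33 members the count of peaks had a Spearman correlation with the length of that stretch of 0.77 in DIFF1, 0.89 in DIFF2, 0.47 in UNDIFF1 and 0.52 in UNDIFF2, given as a description, since all points of a list share 1 library. Of the 9 members with more than 150 kb, 5 were found in all 4 lists, beside 20.6% of protein coding genes with as much. Of the 10 members with 50 to 150 kb, 2 were, beside 2.87%, and of the 14 members below 50 kb none was, beside 0.119%. The paper names 8 of these 9 members, 4 of the 10 and 2 of the 14, chosen on these same libraries. The named members include all 7 found in all 4 lists, so these shares cannot be read as independent of that choice. The part of the length of nearest sequence in the counts was not tested further.

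**Figure D2:**
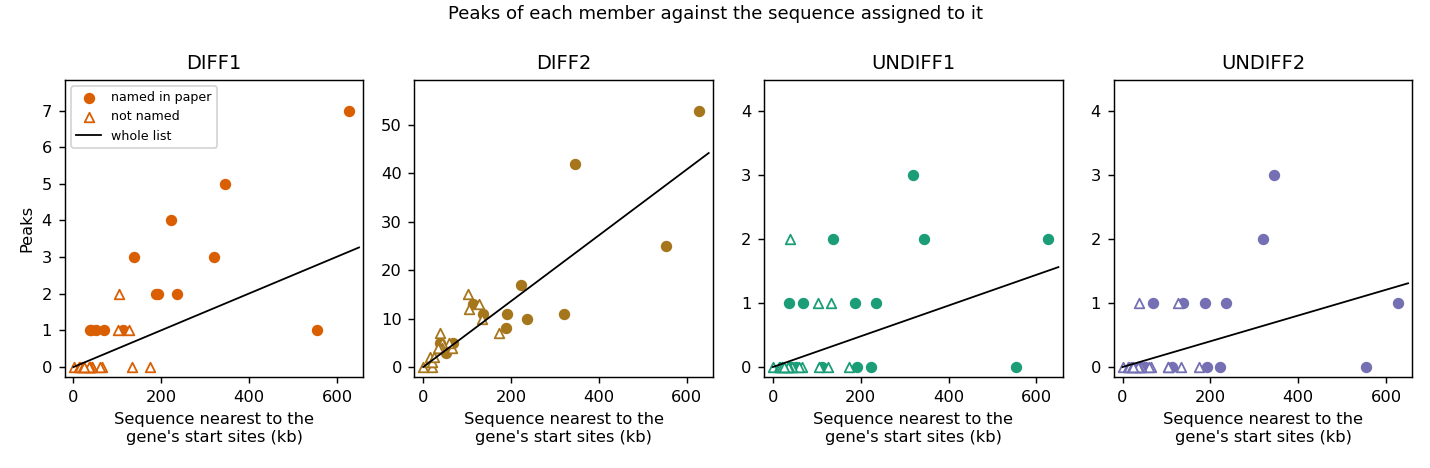
Peaks of each member (vertical axis) against the length of sequence nearest to its start sites in kb (horizontal axis), in 1 panel per list; filled circles are the 14 members named in the paper, open triangles the 19 others, and the line is the mean density of the whole list. Most filled circles lie to the right, and in DIFF2 the points lie along the line, with Ube2e2 and Bard1 above it and Ascc3 below it.

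Per Mb of nearest sequence the members had 9.00 peaks in DIFF1 (95% exact Poisson interval 6.37 to 12.4) where the whole list had 5.02, and 75.3 in DIFF2 (67.3 to 84.1) where the whole list had 68.0. They had 4.03 in UNDIFF1 (2.35 to 6.45) where the list had 2.40, and 2.84 in UNDIFF2 (1.47 to 4.96) where the list had 2.01. These rates are partly fixed by the choice of the 14 named members, which had 10.9 peaks per Mb in DIFF1, 69.6 in DIFF2, 4.15 in UNDIFF1 and 3.19 in UNDIFF2. The 19 others had 3.66 in DIFF1 (1.00 to 9.38) and 1.83 in UNDIFF2 (0.222 to 6.62), both below the rate of the list. They had 91.6 in DIFF2 (74.5 to 111) and 3.66 in UNDIFF1 (1.00 to 9.38), both above the rate of the list. Of these intervals only that of DIFF2 leaves out the rate of the list. In DIFF2 the named members, at 69.6, were near the 68.0 of the whole list. The intervals cover counting error only.

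Of the 9 genes of damage signalling and checkpoints, 3 were nearest to a peak in DIFF1, 7 in DIFF2, 2 in UNDIFF1 and 1 in UNDIFF2. The shares of protein coding genes were 24.0% in DIFF1, 81.6% in DIFF2, 12.6% in UNDIFF1 and 8.7% in UNDIFF2. Of 20 further signalling genes 3 were nearest to a peak in DIFF1, 16 in DIFF2, 2 in UNDIFF1 and 3 in UNDIFF2. Hus1, a subunit of the ring-shaped checkpoint clamp loaded at damaged DNA, was the only one in all 4 lists, with 2 peaks in DIFF1, 8 in DIFF2, 1 in UNDIFF1 and 1 in UNDIFF2. None of its peaks outside DIFF2 lay within 10 kb of the start site, and the nearest lay 11.6 kb away in DIFF1, 2.72 kb in DIFF2, 44.5 kb in UNDIFF1 and 106 kb in UNDIFF2.

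Mapk14 (chr17:28691342-28748405, plus strand), which encodes the stress-activated kinase p38 alpha, had 1 peak in DIFF1, 4 in DIFF2 and 0 in both UNDIFF lists. The DIFF1 peak and a DIFF2 peak overlapped in an intron 4.98 kb downstream of the start site, over 214 bases (chr17:28697439-28697652). The fold over input there was 3.38 in DIFF1 and 5.94 in DIFF2. The findPeaks scores were 26.0 and 25.0, and the listed ChIP tags 16.9 and 29.5. Each fold is relative to the input of its own culture, and the lists were not shown to share a scale. The second close DIFF2 peak, 272 bp downstream of the start, had 43.0 ChIP tags against 21.1 input tags, a fold of 2.04 that is at the bottom of the list, and a score of 37.0 that exceeds 98.4% of it or equals it.

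Cdkn2aip (chr8:47709344-47713931, minus strand), whose product binds the tumour suppressor ARF and acts on p53, had 1 peak in DIFF1, 5 in DIFF2, 1 in UNDIFF1 and 0 in UNDIFF2. A DIFF1 and a DIFF2 peak shared 131 bases 5.85 kb upstream of its start (chr8:47719715-47719845), with a fold over input of 6.07 in DIFF1 and 5.85 in DIFF2. The UNDIFF1 peak 850 bp upstream, with a fold of 3.58, overlapped neither.

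Of the signalling genes, Atm, Chek1, Trp53 and Trp53bp1 had peaks in DIFF2 alone, which held for 52.3% of protein coding genes. Atm, the kinase activated by double-strand breaks, had 4 peaks in DIFF2, the nearest 5.13 kb from its start. Chek1, the kinase downstream of ATR, had 4 with the nearest at 1.48 kb, and Trp53, which encodes p53, had 1 at 3.67 kb. Trp53bp1, which favours end joining at breaks, had 5, with the nearest at 10.8 kb. Each of these 4 had 0 peaks in DIFF1, UNDIFF1 and UNDIFF2.

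Atr and Chek2 were nearest to no peak in any list. The start site of Atr, the kinase that responds to stalled replication, has another start site 80 bp away, that of 1700065D16Rik on the opposite strand, and a second one of the same gene 285 bp away. Only 0.2 kb of sequence was therefore nearest to Atr. The body of Atr held 8 DIFF2 peaks, of which 4 were nearest to 1700065D16Rik and 4 to Xrn1. Chek2, the kinase downstream of ATM, had 20.0 kb of nearest sequence, and its body held 0 peaks in all 4 lists.

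The homologous recombination genes had much of their peak count at 1 gene, Bard1, which held 42 of their 77 peaks in DIFF2 and 5 of their 8 in DIFF1. All 7 genes were nearest to a peak in DIFF2, 2 in DIFF1, 3 in UNDIFF1 and 3 in UNDIFF2. Beside these stood 81.6% of protein coding genes in DIFF2, 24.0% in DIFF1, 12.6% in UNDIFF1 and 8.7% in UNDIFF2. In DIFF2 the group had 114 peaks per Mb (95% exact Poisson interval 89.8 to 142), against 68.0 in the whole list, while 23 further genes of homologous recombination had 65.3, beside 1.66 in DIFF1, 1.11 in UNDIFF1 and 0.0 in UNDIFF2. Those 23 included 3 genes nearest to a peak in DIFF1, 19 in DIFF2, 1 in UNDIFF1 and 0 in UNDIFF2. In DIFF1 the group had 11.8 (5.10 to 23.3), in UNDIFF1 8.86 (3.25 to 19.3) and in UNDIFF2 7.38 (2.40 to 17.2), and the intervals cover counting error only. Without Bard1 the rate was 9.02 in DIFF1, 105.3 in DIFF2, 12.0 in UNDIFF1 and 6.02 in UNDIFF2. Differences between roles were not tested.

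Bard1, the partner of BRCA1 in a ubiquitin ligase needed for recombination, had 5 peaks in DIFF1, 42 in DIFF2, 2 in UNDIFF1 and 3 in UNDIFF2, over 345 kb of nearest sequence. Its gene body (chr1:71027535-71102972, minus strand) held only 1 of the DIFF1 peaks, 7 of the DIFF2 peaks and none of the UNDIFF peaks, so most lay outside the gene. DIFF1 and DIFF2 peaks overlapped at 2 places downstream of the gene, 186 kb and 136 kb from the start site, where the fold over input was 5.30 in DIFF1 and 5.52 in DIFF2 at the farther place and 4.54 in both at the nearer one. The highest fold over input of any member peak, 164.3, was also in this stretch in DIFF2, 129 kb downstream, and rested on 34.0 ChIP tags against 0.2 input tags.

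Brca2 (chr5:150522621-150570147, plus strand), which is needed for repair by homologous recombination, had 0 peaks in DIFF1, 7 in DIFF2, 2 in UNDIFF1 and 1 in UNDIFF2. It was the only member with a peak in both UNDIFF lists and in DIFF2 but none in DIFF1. All 3 UNDIFF peaks lay inside the gene, at 17.0 and 24.2 kb from the start in UNDIFF1 and at 14.3 kb in UNDIFF2, and those at 17.0 and 14.3 kb had their centres in coding exons. The UNDIFF1 peak at 24.2 kb shared 128 bases with a DIFF2 peak (chr5:150546819-150546946), with a fold over input of 2.61 in DIFF2 and 3.65 in UNDIFF1. The UNDIFF1 and UNDIFF2 peaks did not overlap each other.

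Nsmce2, the SUMO ligase of the SMC5/6 complex, was the other gene of this group in all 4 lists, with 3 peaks in DIFF1, 11 in DIFF2, 2 in UNDIFF1 and 1 in UNDIFF2. All of its 6 peaks outside DIFF2 lay in introns of the gene itself, the nearest to a start site at 7.12 kb in UNDIFF1, and none of them overlapped a peak of another list. Brca1, a ligase subunit that promotes end resection, had 5 peaks, and Rad50, Mre11a and Nbn, the subunits of the complex that senses broken ends, had 4 each, all in DIFF2 alone. The nearest peak lay 1.89 kb from the start of Brca1, 18.3 kb from that of Rad50, 6.44 kb from that of Mre11a and 0.74 kb from that of Nbn.

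Of the 5 end joining members all were nearest to a DIFF2 peak and 3 to a DIFF1 peak, against 0 in UNDIFF1 and 1 in UNDIFF2, beside 81.6% of protein coding genes in DIFF2, 24.0% in DIFF1, 12.6% in UNDIFF1 and 8.7% in UNDIFF2. Of 10 further end joining genes 8 were nearest to a DIFF2 peak and 2 to a DIFF1 peak, against 4 in UNDIFF1 and 1 in UNDIFF2. Prkdc, the catalytic kinase of end joining, had 1 peak in DIFF1 and 13 in DIFF2, and Lig4, the ligase that seals the ends, had 2 and 12, while both had 0 in UNDIFF1 and UNDIFF2. The DIFF1 peak of Prkdc, 42.6 kb inside the gene, had a fold over input of 33.14, which exceeded or equalled that of 99.5% of the list, from 16.6 ChIP tags and 0.5 input tags. The body of Prkdc also held 8 DIFF2 peaks and 1 UNDIFF1 peak that were nearer to the start of Mzt2.

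Xrcc5 (chr1:72307421-72394953, plus strand), which encodes the Ku80 subunit that caps broken ends, had 1 peak in DIFF1, 13 in DIFF2, 0 in UNDIFF1 and 1 in UNDIFF2. The UNDIFF2 peak and a DIFF2 peak shared 151 bases 2.45 kb upstream of the start (chr1:72304898-72305048), and the fold over input was 2.86 in DIFF2 and 4.40 in UNDIFF2. It was the shared site closest to a start site among the members. Its partner Xrcc6, which encodes Ku70, had 2 peaks in DIFF2, the nearest at 3.84 kb, and Xrcc4, the scaffold of the ligase, had 7, the nearest at 6.02 kb, with 0 in the other lists.

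**Figure D3:**
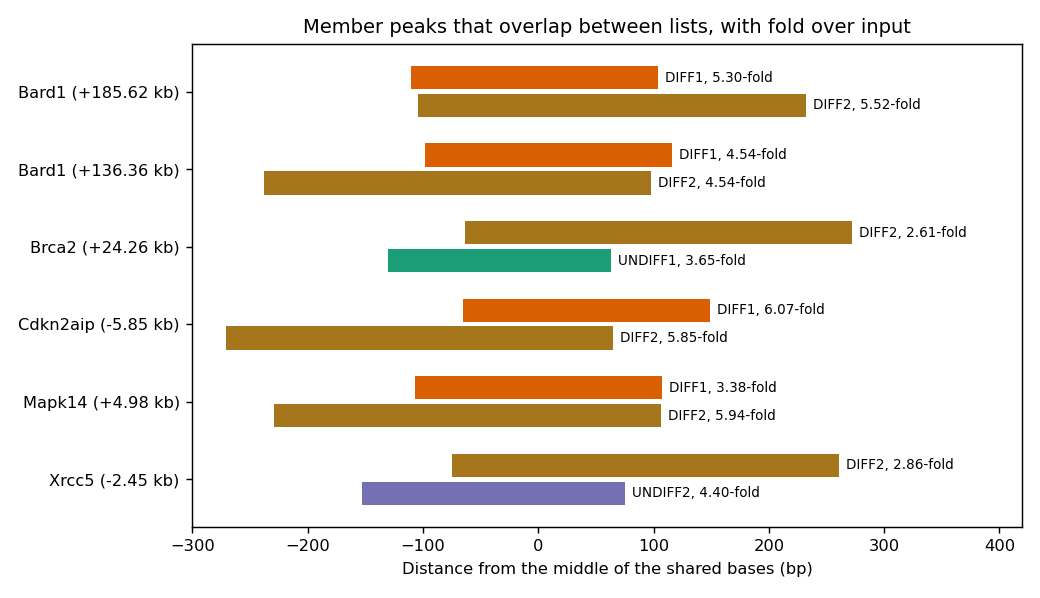
The 6 places where a member peak of 1 list overlaps that of another, drawn to scale as bars around the middle of the shared bases (horizontal axis in bp), with the fold over input beside each bar and the distance from the start site beside the gene. Of the 6, 4 join DIFF1 with DIFF2, 1 joins DIFF2 with UNDIFF1 and 1 joins DIFF2 with UNDIFF2.

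Nucleotide excision repair had 5 members, of which 3 were nearest to a peak in DIFF1, 5 in DIFF2, 2 in UNDIFF1 and 1 in UNDIFF2. Over protein coding genes these shares were 24.0% in DIFF1, 81.6% in DIFF2, 12.6% in UNDIFF1 and 8.7% in UNDIFF2. Among 19 further genes of this pathway the counts were 2 in DIFF1, 14 in DIFF2, 2 in UNDIFF1 and 1 in UNDIFF2. Rad23b, a partner of the damage sensor XPC, was in all 4 lists with 2 peaks in DIFF1, 10 in DIFF2, 1 in UNDIFF1 and 1 in UNDIFF2. Every one of its peaks lay over 10 kb from the start site, the nearest at 49.6 kb in DIFF1, 10.1 kb in DIFF2, 17.4 kb in UNDIFF1 and 121 kb in UNDIFF2. Ercc4, a subunit of the nuclease that cuts 5 prime of a lesion, had 4 peaks in DIFF1 and 17 in DIFF2 and 0 in both UNDIFF lists, and all 4 DIFF1 peaks lay 40.5 to 109 kb upstream of the gene.

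Xpa, which verifies the lesion, had 1 peak in DIFF1, 15 in DIFF2, 1 in UNDIFF1 and 0 in UNDIFF2, the nearest at 61.2 kb in DIFF1, 4.30 kb in DIFF2 and 18.4 kb in UNDIFF1. The sensor Xpc had 1 peak, 4.43 kb from its start, and Ercc1, the partner of ERCC4 in the nuclease, had 2, the nearest 2.81 kb away, all in DIFF2.

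The 4 members of crosslink, base, alkylation and mismatch repair had the lowest rate of the roles in DIFF2, 52.7 peaks per Mb (39.0 to 69.6). The interval holds the 68.0 of the whole list, and Ascc3, with the most sequence of the 4, had 45.2. All 4 were nearest to a peak in DIFF2, 3 in DIFF1, 1 in UNDIFF1 and 0 in UNDIFF2. Beside these stood 81.6% of protein coding genes in DIFF2, 24.0% in DIFF1, 12.6% in UNDIFF1 and 8.7% in UNDIFF2. Among 41 further genes of these pathways 10 were nearest to a peak in DIFF1, 35 in DIFF2, 3 in UNDIFF1 and 3 in UNDIFF2. Fancl, the ubiquitin ligase of the Fanconi anaemia pathway, had 2 peaks in DIFF1 and 11 in DIFF2, and Parp1, which senses single-strand breaks, had 1 and 3. Ascc3, a helicase that prepares alkylated DNA for repair, had 1 peak in DIFF1 and 25 in DIFF2 over 553 kb of nearest sequence, and all 3 genes had 0 in both UNDIFF lists. Msh6, a subunit of the mismatch sensor, had 0 peaks in DIFF1, 10 in DIFF2, 1 in UNDIFF1 and 0 in UNDIFF2. Its peaks came close to the start site in both states, with the centre 1.37 kb downstream in DIFF2 and 1.45 kb upstream in UNDIFF1.

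The 3 ubiquitin ligases and conjugating enzymes were all in all 4 lists, beside 3.97% of protein coding genes. All 3 are among the 14 targets named in the paper, which were chosen on these same libraries. Fbxw7 had 320 kb of nearest sequence, Ube2e2 627 kb and Ube2w 68.8 kb, against a median of 42.5 kb over protein coding genes. Of 12 further genes of this kind 4 were nearest to a peak in DIFF1, 12 in DIFF2, 3 in UNDIFF1 and 1 in UNDIFF2. The shares over all protein coding genes were 24.0% in DIFF1, 81.6% in DIFF2, 12.6% in UNDIFF1 and 8.7% in UNDIFF2. Ube2e2, a conjugating enzyme, had 7 peaks in DIFF1, 53 in DIFF2, 2 in UNDIFF1 and 1 in UNDIFF2, over 627 kb, the most sequence of any member. Fbxw7, the substrate receptor of an SCF ligase that acts on cyclin E, had 3 peaks in DIFF1, 11 in DIFF2, 3 in UNDIFF1 and 2 in UNDIFF2, and its 34.4 DIFF2 peaks per Mb were the fewest of the members with a peak. Ube2w, a conjugating enzyme that attaches ubiquitin to protein N-termini, had 1 peak in DIFF1, 5 in DIFF2, 1 in UNDIFF1 and 1 in UNDIFF2. The nearest peak lay 4.81 kb from a start of Fbxw7 in DIFF1, 1.20 kb in DIFF2, 21.9 kb in UNDIFF1 and 23.5 kb in UNDIFF2. For Ube2e2 these distances were 6.54, 2.96, 70.6 and 157 kb in DIFF1, DIFF2, UNDIFF1 and UNDIFF2, and for Ube2w they were 15.03, 2.48, 14.4 and 33.2 kb.

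Being nearest to the same gene in 2 lists seldom meant sharing a site. Peaks of different lists overlapped by at least 1 bp at 5 of 33 members, Mapk14, Cdkn2aip, Brca2, Bard1 and Xrcc5, which is 15.2% beside 4.08% of protein coding genes, and 3 of the 5 are among the named targets. Of the 7 members found in all 4 lists, Bard1 was the only one with an overlap. The paper lists Fbxw7, Nsmce2, Ube2e2 and Ube2w beside Bard1 among the genes nearest to overlapping peaks. Here these genes had 0 overlapping peaks, and the reason for this difference was not tested. Without DIFF2 no member had an overlapping peak (0 of 33), beside 0.562% of protein coding genes. Of the 1799 overlapping pairs in the series, 776 joined DIFF1 with DIFF2 and 95 joined UNDIFF1 with UNDIFF2, and the members had 4 and 0 of these. Of the member peaks, 12 of 385 (3.12%) overlapped a peak of another list, against 1.67% of all peaks.

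In 10 further pairs, member peaks of different lists lay within 1 kb of each other, centre to centre, without overlap. At Ube2w the DIFF1 peak lay 647 bp from the UNDIFF1 peak that holds the E-box printed above, with a fold over input of 3.53 in DIFF1 and 6.45 in UNDIFF1. At Bard1 a DIFF2 and an UNDIFF1 peak lay 306 bp apart, and a DIFF1 and an UNDIFF2 peak 869 bp apart. At Hus1 a DIFF1 and a DIFF2 peak lay 404 bp apart, 11.6 and 12.0 kb upstream of the start.

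**Figure D4:**
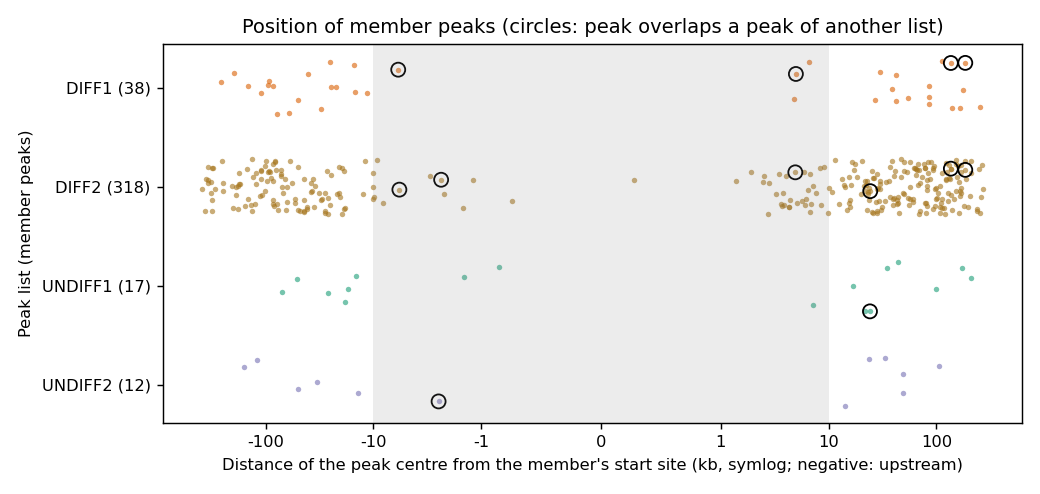
Distance of each member peak from the start site in kb (horizontal axis, linear within 1 kb and logarithmic beyond; negative values are upstream) in the 4 lists, with the span within 10 kb in grey and overlapping peaks circled. Of the 385 points, 51 fall in the grey span, 43 of them in DIFF2, and 3 fall within 1 kb.

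Within 10 kb of a start site lay 43 of 318 member peaks (13.5%) in DIFF2 and 8 of 67 (11.9%) in the other lists. The median distance from the start site was 57.8 kb for member peaks and 56.1 kb for all other peaks in DIFF1. The values were 57.0 and 54.5 kb in DIFF2, 24.2 and 63.3 kb in UNDIFF1 (17 member peaks), and 41.5 and 79.7 kb in UNDIFF2 (12 member peaks). A peak lay within 10 kb of a start site in any list for 24 of 33 members, which is 72.7% beside 66.8% of protein coding genes, and within 1 kb for 3 members, 9.09% beside 8.46%. Without DIFF2, 7 members had a peak within 10 kb (21.2%, beside 12.5%), namely Mapk14, Cdkn2aip, Nsmce2, Xrcc5, Msh6, Fbxw7 and Ube2e2, and only Cdkn2aip had one within 1 kb (3.03%, beside 1.11%). Of these 7, 5 are among the 14 targets named in the paper, chosen on these same libraries, and 2 among the 19 others. Of the 125 further pathway genes 13 (10.4%) had a peak within 10 kb in these lists. In DIFF2 the nearest peak lay 2.22 kb from the start of Cdkn2aip, 3.50 kb from that of Fancl, 4.00 kb from that of Brca2, 4.27 kb from that of Prkdc and 5.92 kb from that of Nsmce2. By place, 199 member peaks were intergenic, 180 intronic, 3 in promoters, 2 in coding exons and 1 in another exon. The intergenic share was 65.8% of member peaks and 59.5% of all other peaks in DIFF1, and 49.4% and 63.2% in DIFF2. It was 52.9% and 59.7% in UNDIFF1, and 66.7% and 65.5% in UNDIFF2.

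Among the 125 further pathway genes, 6 had overlapping peaks (4.8%). These were Gadd45a (DIFF2 and UNDIFF1), a stress-induced growth arrest gene, Rbbp8 (DIFF1 and DIFF2), the resection factor CtIP, Aptx (DIFF2 and UNDIFF1), which repairs abortive ligation ends, Alkbh2 (DIFF2 and UNDIFF1), an alkylation-reversing dioxygenase, Usp7 (DIFF2 and UNDIFF1), a deubiquitinase of p53 and MDM2, and Rfwd3 (DIFF2 and UNDIFF2), a ubiquitin ligase for RPA. A peak within 1 kb of a start site was found for 16 (12.8%), which were Topbp1, Mdc1, Cdkn1a, Dna2, Smc5, Uimc1, Ercc3, Rpa2, Rpa3, Fanca, Fance, Ogg1, Mutyh, Fen1, Mlh3 and Rad18. For 15 of the 16 the nearest peak was in DIFF2, and for Fen1, the flap endonuclease, it was in DIFF1, at 0.56 kb.

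Member peaks were also set against the other peaks of their list in further measures, and none of the 5 tested differed in the same direction in all 4 lists. Members were selected by the position of the peak centre, so the share in gene bodies is not independent of the selection. The median fold over input was 4.54 for member peaks and 4.31 for all other peaks in DIFF1, 4.93 and 5.15 in DIFF2, 3.58 and 3.38 in UNDIFF1, and 4.27 and 4.14 in UNDIFF2. The share with the centre in a soft-masked repeat was 15.8% and 26.7% in DIFF1, 89.6% and 86.0% in DIFF2, 11.8% and 21.4% in UNDIFF1, and 8.33% and 26.3% in UNDIFF2, so that members were lower in DIFF1, UNDIFF1 and UNDIFF2 and higher in DIFF2. The share with the centre in a gene body was 34.2% and 40.0% in DIFF1, 50.3% and 36.3% in DIFF2, 41.2% and 39.7% in UNDIFF1, and 33.3% and 34.2% in UNDIFF2. The median number of input tags was 3.5 and 4.0 in DIFF1, 5.0 and 4.8 in DIFF2, 6.5 and 7.0 in UNDIFF1, and 6.3 in both in UNDIFF2.

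In a paired exact permutation test over the 4 lists (two-sided), the mean difference of member minus other peaks was 0.085 for the median fold (p = 0.5), -0.2 for the median input tags (p = 0.5), -8.74 percentage points for repeats (p = 0.25), 0.933 for CACGTG (p = 0.625) and 2.23 for gene bodies (p = 0.75). The Benjamini-Hochberg adjusted p was 0.75 for each of the 5 measures. The smallest p that 4 lists allow is 2 of 16 sign patterns, so no measure could have passed 0.05.

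**Figure D5:**
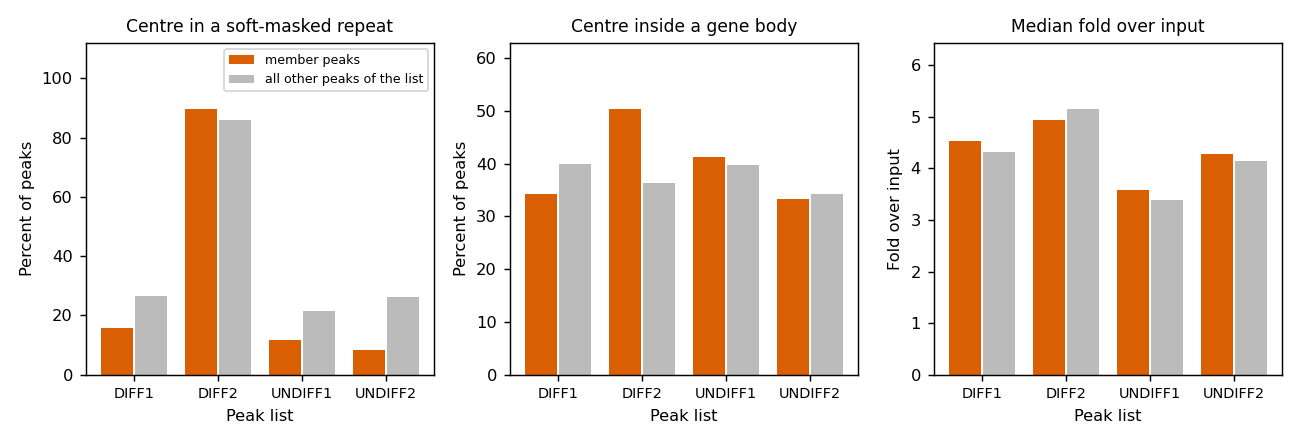
Member peaks (left bar of each pair) and all other peaks of the same list (right bar) in the 4 lists, by share of peaks in soft-masked repeats, share of peaks in gene bodies (both in percent) and median fold over input. The repeat share of DIFF2, 89.6% of member and 86.0% of other peaks, stands above that of the other lists.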

How the data were processed

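Because 1 DIFF ChIP and input pair had many more reads than the others, the authors split its reads into 5 parts and kept 1 part for analysis. The sources used here do not name that culture. For each ChIP library the authors aligned reads to GRCm38 with Bowtie2 2.2.9 and ran HOMER 4.10 findPeaks against that culture's input DNA. Peaks had to pass 2-fold enrichment both over input and locally, a clonal fold filter of 2 and a false discovery rate of 0.01. The deposited lists hold, per peak, its ChIP and input tags and normalized tags as signal, the findPeaks score, ratios (fold over input, over the local background and for clonal reads) and an unadjusted p-value over input, of which the largest was 9.93e-05. Neither reads nor inputs were analysed separately, so the absence of a peak does not show that BMAL1 was absent. The labels number the cultures UNDIFF1 and UNDIFF2 as 6 and 8, and DIFF1 and DIFF2 as 1 and 2.

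Each peak centre was given the gene of the closest start site among 45756 curated RefSeq transcripts, with ties between genes going to the first by position and then by symbol, so that Rnf8, whose start site coincides with that of another gene, received none. Of 126 further pathway genes 125 were matched. Promoters ran from 1000 bp before a start site to 100 bp after it. Overlap meant at least 1 shared bp. The sequence around the E-boxes of 1 member peak is not reported here. States were compared by exact permutation, and member peaks with other peaks by paired exact permutation over lists, at a threshold of 0.05 with Benjamini-Hochberg adjustment. Members, roles and lists of genes were chosen with earlier results of these data known. Members were described by role, and other pathway genes were named where their peaks overlapped or lay within 1 kb of a start site, apart from 3 in all 4 lists named after their values were seen. Alternatives were other gene assignments, filters on peaks, a stricter overlap and leaving out each list. The code was tested on simulated data. Analyses ran in Python 3.11.15 with pandas 2.3.3, numpy 2.4.6 and scipy 1.17.1, and figures in matplotlib 3.10.9.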

Additional observations from a re-analysis of the deposited data

How the results depend on the processing

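Leaving out 1 list at a time, the difference in member peaks per 1000 peaks (DIFF minus UNDIFF) ran from -0.68 without DIFF1 to 0.38 without DIFF2 and was 0.0543 without UNDIFF1, and the difference in members with a peak ran from 7.0 to 21.0. The members in all lists numbered 7 to 9, those in the DIFF lists and no UNDIFF list 7 to 19, with 19 without DIFF1, those with overlapping peaks 0 to 4, with 2 without DIFF1 and 0 without DIFF2, and those with a peak within 10 kb 7 to 24, with 7 without DIFF2. With all RefSeq transcripts the difference per 1000 was 0.209, with 3 members in all 4 lists and 3 with overlaps, and with start sites of protein coding genes only it was 0.505. With peaks at least 4-fold over input it was 0.0413, with 2 members in all 4 lists and 2 with overlaps. With 5475 peaks per list, by score, the difference in members with a peak was -1.5, with 2 members in all 4 lists, 1 in both DIFF lists and neither UNDIFF list, 0 with overlaps and 7 within 10 kb. Outside soft-masked repeats 3 members were in all 4 lists, 1 had overlaps and 9 had a peak within 10 kb, and within 100 kb of a start site 4 were in all 4 lists. The cause of these changes was not tested. Of 66 values recomputed under the alternatives, 44 kept their direction and, for counts, stayed within 1.5 times the value given in the report.

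No paired analysis was possible because the DIFF and UNDIFF cultures carry different replicate numbers, and each input enters only through the fold of its own ChIP library. The lists give no tags outside peaks, and their depth, read from the tags, differed by up to 2.27 times, so a site under the score minimum of 1 list was not detectable there.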

Other observations

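Counted by gene body in place of the nearest start site, the 33 members held 13 peaks in DIFF1, 207 in DIFF2, 8 in UNDIFF1 and 4 in UNDIFF2, at 7 members in DIFF1, 29 in DIFF2, 5 in UNDIFF1 and 4 in UNDIFF2. Per Mb of member gene bodies these were 4.93 peaks in DIFF1, where the whole list had 5.02 per Mb of genome, 78.6 in DIFF2 against 68.0, 3.04 in UNDIFF1 against 2.40, and 1.52 in UNDIFF2 against 2.01. The share of all protein coding genes with a peak in the body and the rate over all gene bodies are not given here. The body counts therefore cannot be read as a trait of the members. The body of Ube2w held 13 DIFF2 peaks, of which 8 were nearer to a start site of Stau2, and that of Prkdc held 21. Of the members with 0 DIFF2 peaks by nearest start site, Atr held 8 in its body and Chek2 held 0.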
